A study of Rosa rugosa with 4 samples.

Results

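UDP-glycosyltransferases (UGTs) were described in petals and leaves of Rosa rugosa, a scented shrub rose. The members were the assembled transcripts (contigs) whose best database hit came from strawberry (Fragaria), rose, Prunus, apple (Malus) or pear and named a UDP-glycosyltransferase or 1 of the named glucosyltransferases of small molecules. This rule used the annotation alone and no expression value, and it found 64 of the 65535 contigs in the table, or 64 of the 14455 contigs with a Rosaceae hit. RNA of untreated greenhouse plants was sequenced after removal of ribosomal RNA in 2 petal libraries (petal 1, petal 2) and 2 leaf libraries (leaf 1, leaf 2). The labels of the libraries differed by tissue only, no cultivar or flower stage was given, and it was not stated whether libraries of the same tissue were taken from different plants, so p-values measure the spread between these libraries, which may be technical. The table held only some of the contigs of the assembly.

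UGTs move a sugar from a UDP-sugar, usually UDP-glucose, onto a small molecule such as a flavonoid, a hormone, a terpenoid or a xenobiotic. The sugar makes the acceptor more soluble, often inactivates or stabilises it, and prepares it for storage in the vacuole. In flowers they are best known for the last steps of anthocyanin synthesis, where a sugar makes the red and blue pigments stable, and for storing scent compounds as odourless glycosides. The family numbers (UGT73, UGT85 and so on) follow protein similarity, and the acceptor of a contig cannot be read from its number or from the name of its best hit.

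Abundance was given in FPKM, fragments per kilobase of contig scaled by the mapped fragments of the library, and the number of fragments behind each value was estimated from the steps of the FPKM values. The estimated mapped depth was 18600000 and 23500000 fragments for the petal libraries, against 26200000 and 20100000 for the leaf libraries, and the contigs analysed here took 0.801% to 2.94% of it. Where a pair of values is given for a tissue, that of library 1 stands before that of library 2. The libraries also differed in the other organisms they held. Contigs with a hit to grey mould fungi held 27.9% of the fragments of the table in petal 2 and at most 0.0768% in the other 3 libraries, and contigs with an aphid hit held 6.42% and 3.42% in the petal libraries, against 0.281% and 0.371% in the leaf libraries. Contigs with a hit to a leaf-spot fungus held 0.0125% and 0.163% in petals, against 4.04% and 2.38% in leaves. Contigs with a hit to chelicerates, the group of mites and spiders, held 4.84% in petal 2 and at most 0.0026% in the other 3 libraries. The labels were checked on marker contigs. Petal markers held 3798 and 499 fragments in the petal libraries, against 22 and 4 in the leaf libraries, and 4269 of their 4323 fragments were on TR136248|c0_g1_i1, whose hit is NUDX1, the rose nudix hydrolase of scent synthesis. The 11 contigs with a photosystem or chlorophyll-binding hit (9 above 0) held 100 and 51 fragments in petals, against 51 and 40 in leaves, so among the contigs analysed here they did not mark the leaf. Values are also given relative to all Rosaceae-hit fragments, which made up 0.951% and 0.579% of the mapped fragments in the petal libraries, against 0.676% and 0.617% in the leaf libraries.

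Most UGT contigs were short pieces with few fragments. Their lengths ran between 179 and 1848 nt (median 293.5 nt). Fragaria gave 56 of the hits, Prunus 6 and Malus 2, with 32 distinct hit genes, so several contigs can be pieces or copies of 1 gene. Of the 64 contigs, 22 (34.4%) were listed at 0 in all 4 libraries, against 45.8% of all Rosaceae-hit contigs. Of the 42 above 0, 10 had at least 20 fragments, 18 had fewer than 5, 18 were read in a single library and 4 in every library. The petal libraries had 25 and 22 members above 0, against 18 and 12 in the leaf libraries. Low values on short contigs of the whole table, other organisms included, also numbered more in petals (7894 and 18213) than in leaves (6736 and 5485). A petal excess in contigs read was thus also seen beyond UGTs. The 4 libraries held 9042 member fragments in all.

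By the name of the hit, the 7-deoxyloganetin glucosyltransferase group was the most numerous, with 24 contigs (18 above 0), followed by UGT76 with 12 (6 above 0) and the flavonoid 3-O-glucosyltransferases with 6 (3 above 0). UGT73, UGT85, UGT87 and UGT91 had 4 contigs each, of which 2, 3, 3 and 3 were above 0, in that order. UGT72, UGT75, UGT89, UGT90, anthocyanidin 3-O-glucosyltransferase and anthocyanidin 5,3-O-glucosyltransferase had 1 contig each, and those of UGT75 and UGT89 were listed at 0. No contig had a hydroquinone or zeatin glucosyltransferase hit.

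UGT contigs took a larger share of the Rosaceae-hit fragments in petals than in leaves. Petal 1 had a share of 1.72% (95% Wilson interval 1.66-1.78%) and petal 2 of 1.96% (1.89-2.04%). Leaf 1 had 1.10% (1.05-1.15%) and leaf 2 1.11% (1.06-1.17%). Both petal libraries stood above both leaf libraries and the intervals, which cover counting error only, did not overlap between tissues. The petal over leaf ratio of the mean shares was 1.66. Summed over members, the level was 751.8 and 549.4 FPKM in petals, against 184.4 and 169.3 FPKM in leaves, a 3.68-fold ratio that weights short contigs with few fragments more than the share does. It was 2.47 without TR11081|c0_g1_i1, the member of highest mean FPKM. That sum still held TR18361|c0_g1_i1, with 126.9 and 300.04 FPKM in petals from 3 and 8 fragments. With 2 libraries per tissue an exact permutation test cannot pass 0.05, so none was run. In bulk RNA, more cells with a transcript and more transcript per cell cannot be told apart.

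The excess came from particular groups, and other groups went the other way. UGT87 contigs took 1.35% and 1.5% of Rosaceae-hit fragments in petals, against 0.718% and 0.878% in leaves. The 7-deoxyloganetin glucosyltransferase group took 0.341% and 0.436% in petals, against 0.0175% and 0.00725% in leaves, or 605 and 593 fragments against 31 and 9. Contigs with UGT85 in the hit name were the reverse, with 4 and 0 fragments in petals, against 546 and 234 in leaves, where they took 0.308% and 0.189%. A single contig, TR13027|c0_g1_i1, held 540 and 232 of those leaf fragments. The groups follow hit names, and 7-deoxyloganetin glucosyltransferase itself belongs to the UGT85 family. UGT73 contigs took 0.0135% and 0.00955% in petals, against 0.0496% and 0.0282% in leaves. Without TR124784|c0_g1_i1, the UGT87 contig that held most fragments, the member share was 0.369% and 0.463% in petals, against 0.384% and 0.236% in leaves, and the tissues overlapped. The member share of fragments thus separated the tissues only with this contig. The summed FPKM without it was 669.6 and 493.8 in petals, against 152.9 and 134.0 in leaves. Much of those petal sums lay on 2 contigs at 0 in both leaf libraries. They were TR11081|c0_g1_i1 (290.0 and 138.3 FPKM) and TR18361|c0_g1_i1 (126.9 and 300.04 FPKM, from only 3 and 8 fragments).

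**Figure D1:**
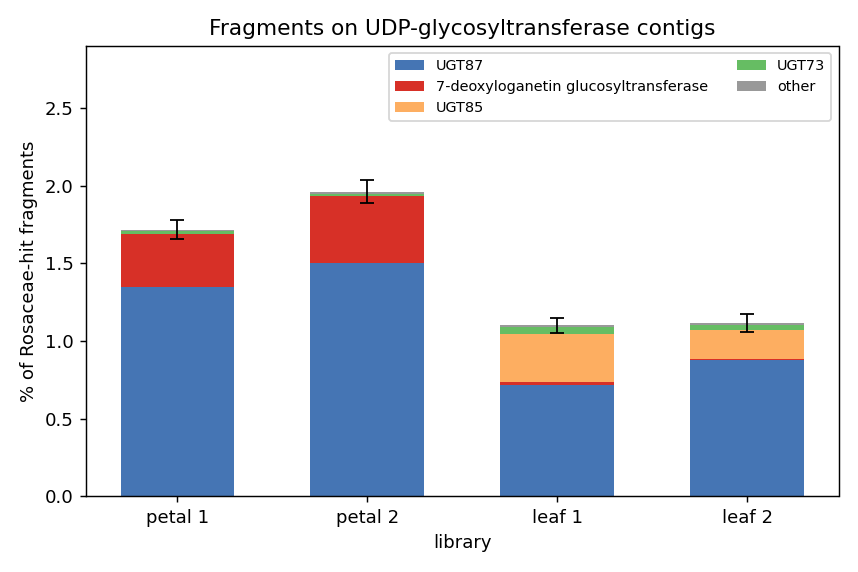
Share of Rosaceae-hit fragments (%, y axis) on UDP-glycosyltransferase contigs in each library (x axis), stacked by the group of the best hit, with the 95% Wilson interval of the whole bar, which covers counting error only. The petal bars reach 1.72% and 1.96% and the leaf bars 1.10% and 1.11%, with the 7-deoxyloganetin glucosyltransferase part seen mainly in the petal bars and the UGT85 part in the leaf bars.

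The enzyme 7-deoxyloganetin glucosyltransferase is known from gardenia and periwinkle as a UGT of iridoid synthesis, where it glucosylates 7-deoxyloganetin, and it belongs to the UGT85 family. In strawberry annotations the name is given by similarity to a whole group of genes whose acceptors it does not settle. Of the 24 contigs, 7 had the same best hit, the strawberry gene LOC101295419. The 5 of them that were above 0 were all read in both petal libraries and in neither leaf library.

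TR11081|c0_g1_i1 (363 nt, LOC101295419) had 290.0 and 138.3 FPKM in the petal libraries, against 0 and 0 FPKM in the leaf libraries. The petal values rested on 420 and 249 fragments and averaged 214 ± 107 FPKM (SD, n = 2). Against a floor of 3 fragments over both leaf libraries, the contig was at least 188-fold higher in petals. Its log2(FPKM + 1) difference was 7.65 ± 1.28 (SE), and it was called higher in petals by limma with Benjamini-Hochberg adjustment over 2157 contigs (adjusted p = 8.16e-07). With 0 in both leaf libraries it passed the filter on mean and SD through its petal values alone, so this p is not independent of the filter. With other filters it was not called (adjusted p = 0.427 with none, 0.0664 where the mean had to reach 1 FPKM and 0.469 with at least 20 fragments). Over all contigs these settings called 3 of 39061, 9 of 18894 and 0 of 4978, in that order. Without leaf 1 or leaf 2, both at 0, its difference stayed at 7.65, but it was not called in those fits of 3 libraries. It was the UGT contig with the highest mean FPKM in the table.

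The other contigs of this gene were lower and showed the same split. TR112713|c0_g1_i1 (405 nt) had 20.8 and 12.2 FPKM in petals, against 0 and 0 in leaves, from 45 and 33 fragments, at least 23.3-fold higher in petals. TR112713|c0_g2_i1, from the same assembly component, had 6.29 and 1.35 FPKM in petals, against 0 and 0 in leaves, and TR11413|c0_g1_i1 had 3.95 and 0.97 FPKM, against 0 and 0. TR110554|c0_g1_i1 had 5.49 and 6.03 FPKM in petals from 3 and 4 fragments, against 0 and 0 in leaves. These 4 contigs did not pass the FPKM filter of the test. TR112713|c0_g1_i1 was not called over contigs with at least 20 fragments (adjusted p = 0.469), where 0 of 4978 were called. Together the contigs with this hit held 495 and 294 fragments in petals, against 0 and 0 in leaves. They may be pieces of 1 transcript, so their number is not a number of genes.

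Of the 42 members above 0, 7 (16.7%) were read in both petal libraries and in neither leaf library, against 6.93% of all Rosaceae-hit contigs above 0. Of those 7, 5 were the contigs of LOC101295419. The reverse pattern, both leaf libraries and neither petal library, was found in 3 of the 42 members (7.14%), against 4.5% of all Rosaceae-hit contigs above 0.

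The other contigs of the 7-deoxyloganetin group with at least 20 fragments were each read in 1 library of a tissue and not in the other. TR13051|c0_g1_i1 (1073 nt, LOC101295133) had 0 and 16.1 FPKM in the petal libraries, against 0 and 0 in leaves, and its 297 fragments all came from petal 2. Petal 2 was also the library with the grey mould and chelicerate fragments, whose part in this value was not tested. TR119556|c0_g1_i1 (325 nt, LOC101297048) had 42.6 and 0 FPKM in petals, against 3.44 and 0 in leaves, and its log2 difference of 1.65 ± 3.47 (SE) was not called (limma, adjusted p = 0.667). Without petal 1 the sign of that difference turned, to -1.08. The petal libraries of this contig thus lay farther apart than the tissues.

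Of the 4 contigs with a hit to LOC101303344, none was read in both libraries of a tissue. TR107683|c0_g1_i1 had 11.4 and 0 FPKM in petals, against 2.47 and 0 in leaves, and TR19195|c0_g1_i1 had 5.63 and 0 FPKM, against 1.5 and 0. TR13120|c0_g1_i1 had 95.2 FPKM in petal 1 alone, from 15 fragments, and was not called (adjusted p = 0.515), and TR1466|c0_g1_i1 had 15.7 FPKM in leaf 2 alone, from 6 fragments. Among the 10 members with at least 20 fragments, 3 (TR119556|c0_g1_i1, TR107683|c0_g1_i1 and TR19195|c0_g1_i1) were read in petal 1 and leaf 1 alone, and 0 in petal 2 and leaf 2 alone. Of the 1117 Rosaceae-hit contigs with at least 20 fragments, 9.04% were read in petal 1 and leaf 1 alone and 6.36% in petal 2 and leaf 2 alone, while 4 contigs were read in petal 2 and leaf 1 alone and 2 in petal 1 and leaf 2 alone. Contigs shared by same-numbered libraries of different tissue and missing from the other pair were thus counted far beyond UGTs, and crossed pairs shared few. Whether a replicate number marked a shared plant or day was not given. TR15052|c0_g1_i1, with 27.8 and 0 FPKM in petals, against 13.3 and 0 in leaves, had the same pattern from 3 fragments in all and was not called (adjusted p = 0.878). The remaining 6 contigs of the group above 0 held 1 to 6 fragments each, and the 6 others were listed at 0.

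**Figure D2:**
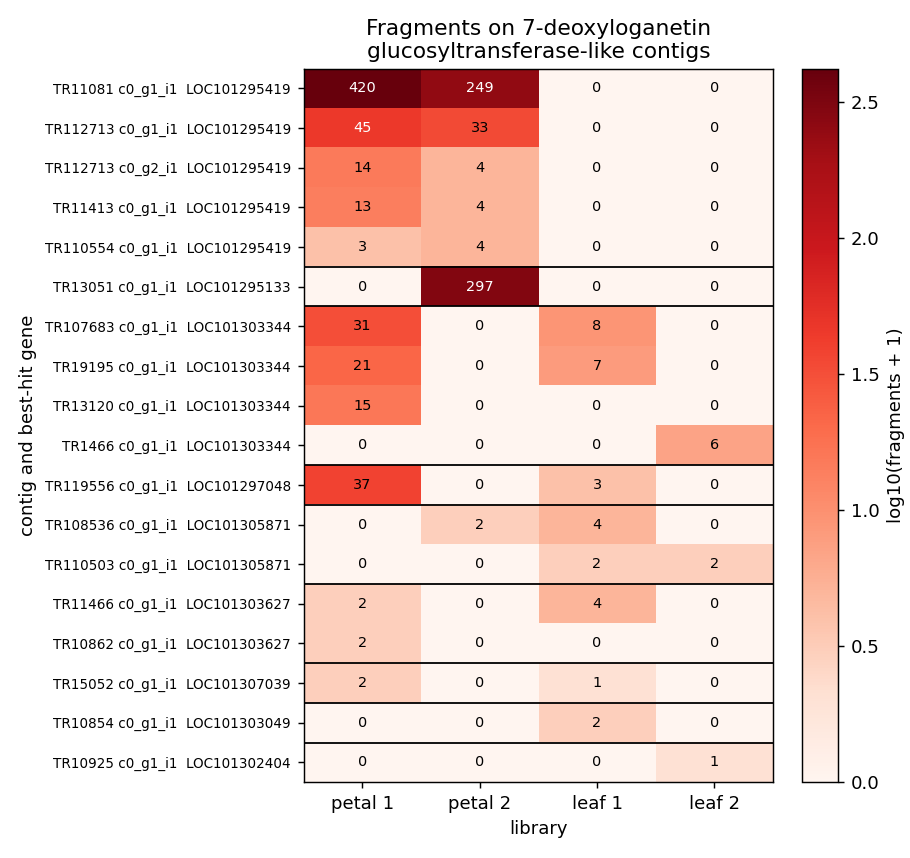
Estimated fragments (numbers in the cells, colour on a log10(fragments + 1) scale) on the 18 contigs above 0 with a 7-deoxyloganetin glucosyltransferase hit (rows, with the strawberry gene of the best hit, lines parting the genes) in each library (columns). The 5 contigs of LOC101295419 are filled in both petal columns and empty in both leaf columns, and TR13051|c0_g1_i1 is filled in petal 2 alone.

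UGT85 enzymes glucosylate cytokinins in Arabidopsis and cyanohydrins in sorghum, the step that makes cyanogenic glucosides. The main UGT85 contig ran opposite to the contigs of LOC101295419. TR13027|c0_g1_i1 (530 nt, with an apple gene, LOC103436497, as its best hit) had 0 and 0 FPKM in petals, against 94.5 and 54.2 FPKM in the leaf libraries, from 540 and 232 fragments. Against a floor of 3 fragments over both petal libraries it was at least 247-fold higher in leaves. Its log2(FPKM + 1) difference, petal minus leaf, was -6.18 ± 1.76 (SE), and it was called lower in petals (limma, adjusted p = 0.0416). It passed the filter through its leaf values alone, and with other filters it was not called (adjusted p = 0.427 with none, 0.503 where the mean had to reach 1 FPKM and 0.469 with at least 20 fragments). Over all contigs these settings called 3 of 39061, 9 of 18894 and 0 of 4978, in that order. This call lay close to the threshold and was lost under other settings with an adjusted p of up to 0.509. Without petal 1 or petal 2, both at 0, the difference stayed at -6.18, but the contig was not called in those fits of 3 libraries. TR116555|c0_g1_i1, with a UGT85A5-like hit in Prunus, had 0 and 0 FPKM in petals, against 1.30 and 0.58 FPKM in leaves, from 6 and 2 fragments, which is near the limit of detection. TR11472|c0_g1_i1, with the same Prunus hit, had 4 fragments, all in petal 1. The hits of these lesser contigs had e-values of 3e-06 and 2e-06, where a lower value is a closer match, so their family name is less certain.

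UGT87 is a small family, of which UGT87A2 of Arabidopsis is known to act on flowering time. Its contig TR124784|c0_g1_i1 (1848 nt, UGT87A1-like, LOC101314553), long enough for a whole UGT coding sequence, was the most deeply read member, with 6780 of the 9042 fragments. It had 82.2 and 55.6 FPKM in the petal libraries, against 31.5 and 35.3 FPKM in the leaf libraries. Both petal values were above both leaf values, with means of 68.9 ± 18.8 FPKM in petals and 33.4 ± 2.74 FPKM in leaves (SD, n = 2 each), a 2.06-fold ratio. The log2 difference of 0.999 ± 0.748 (SE) was not called (limma, adjusted p = 0.515), and no alternative called it (adjusted p = 0.198 to 0.777). Scaling the libraries to an equal sum over all contigs moved the median log2 difference of the tested contigs from 2.21 to 1.82. With that scaling the difference of TR124784|c0_g1_i1 was 0.40. The other UGT87 contigs were near the limit of detection. TR114513|c0_g1_i1 had 1.62 and 1.29 FPKM in petals, against 1.94 and 0 FPKM in leaves, and TR137149|c0_g1_i1 had 1 fragment in each library.

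UGT73C enzymes act on hormones and triterpenoids in other plants, and UGT73C5 of Arabidopsis glucosylates brassinosteroids. The UGT73 contigs above 0 shared the hit LOC101310054, and their values were higher in leaves. TR14043|c0_g1_i1 (970 nt, UGT73C3-like) had 1.74 and 0.75 FPKM in petals, against 4.06 and 2.12 FPKM in leaves, from 22 and 12 fragments against 70 and 28. The means were 2.48-fold higher in leaves. TR139695|c0_g2_i1 (864 nt) had 0.19 and 0.07 FPKM in petals, against 1.23 and 0.63 FPKM in leaves, with 3 fragments in petals and 25 in leaves. Its hit had an e-value of 2e-08, against 3e-35 for TR14043|c0_g1_i1, so its family name is less certain. Both leaf libraries stood above both petal libraries for each of these contigs, but neither reached the FPKM filter. Tested over the contigs with at least 20 fragments, neither was called by limma (adjusted p = 0.469 for both), and with no filter the adjusted p was 0.684 for TR14043|c0_g1_i1 and 0.475 for TR139695|c0_g2_i1. Over all contigs these settings called 0 of 4978 and 3 of 39061.

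**Figure D3:**
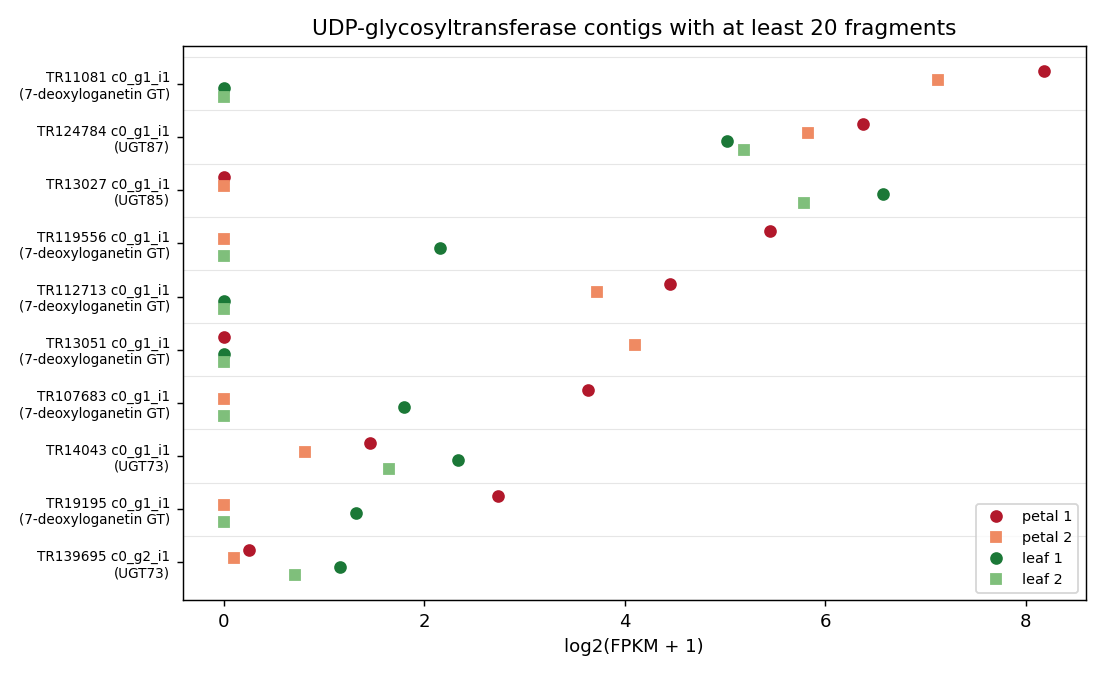
Level of the 10 UDP-glycosyltransferase contigs with at least 20 fragments (rows, by mean FPKM), as log2(FPKM + 1) on the x axis, with 1 point per library (red, petal 1 and petal 2; green, leaf 1 and leaf 2). TR11081|c0_g1_i1 and TR112713|c0_g1_i1 lie at 0 in both leaf libraries, TR13027|c0_g1_i1 lies at 0 in both petal libraries, and TR124784|c0_g1_i1 is read in all 4.

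Over these 10 contigs, 3 (TR11081|c0_g1_i1, TR112713|c0_g1_i1 and TR124784|c0_g1_i1) had both petal libraries above both leaf libraries, and 3 (TR13027|c0_g1_i1, TR14043|c0_g1_i1 and TR139695|c0_g2_i1) had both leaf libraries above both petal libraries. Among all 1117 Rosaceae-hit contigs with at least 20 fragments, 27.4% and 21.9% did so in the same directions, so the members' 30% each was close to that background. Their median log2 difference was 0.96, against 0.11 over those 1117 contigs. The 4 remaining contigs were read in a single library or in petal 1 and leaf 1 alone.

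Among the contigs analysed here, which are only some of the assembly, the glucosyltransferases of flavonoids and anthocyanidins, the pigment enzymes among the UGTs, were barely read. Flavonoid 3-O-glucosyltransferases add glucose to flavonols or anthocyanidins, and the strawberry enzymes numbered 6 and 7 act on flavonols. TR18361|c0_g1_i1 (201 nt, flavonoid 3-O-glucosyltransferase 6-like, LOC101309653) had 126.9 and 300.04 FPKM in petals, against 0 and 0 FPKM in leaves. It was called higher in petals by limma (log2 difference 7.62 ± 1.29 SE, adjusted p = 1.08e-06), but on this short contig the values stood for 3 and 8 fragments. The petal mean was 3.43-fold above a floor of 3 fragments over both leaf libraries, a fold that leaves out the counting error of the petal fragments. It passed the filter through its petal values alone. The call was lost with no filter (adjusted p = 0.427) and where the mean had to reach 1 FPKM (0.07). Over all contigs these settings called 3 of 39061 and 9 of 18894. Its 11 fragments kept the contig out where 20 were asked for. Without leaf 1 or leaf 2, both at 0, its difference stayed at 7.62, but it was not called in those fits of 3 libraries. TR121903|c0_g1_i1 (flavonoid 3-O-glucosyltransferase 7, LOC101304787) had 3.59 and 1.48 FPKM in petals, against 12.8 and 0 FPKM in leaves, from 10 fragments in all.

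Anthocyanidin 5,3-O-glucosyltransferase was described in rose as an enzyme that glucosylates the pigment core at both positions. Its contig, TR120090|c0_g1_i1 (359 nt), had 3.62 and 1.16 FPKM in petals, against 0 and 0 FPKM in leaves, from 5 and 2 fragments. TR121539|c0_g1_i1, with an anthocyanidin 3-O-glucosyltransferase 2-like hit, had 0 and 1.63 FPKM in petals, against 0 and 10.6 FPKM in leaves, from 2 fragments against 8. With 7 and 10 fragments in all, neither contig passed the FPKM filter, and with no filter limma did not call them (adjusted p = 0.427 for TR120090|c0_g1_i1 and 0.638 for TR121539|c0_g1_i1). That setting called 3 of all 39061 contigs.

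The contigs above 0 of the other families held 1 to 9 fragments each. UGT76C2 is a cytokinin N-glucosyltransferase in Arabidopsis, and its best read homologue here, TR15577|c0_g1_i1, had 1.17 and 0.31 FPKM in petals, against 1.65 and 0 FPKM in leaves. The 12 UGT76 contigs held 18 fragments in all. The 3 UGT91 contigs above 0, led by TR144192|c0_g1_i1 (UGT91C1-like, 0 and 5.08 FPKM in petals, against 0 and 0 in leaves), held 4 fragments, all from petal 2. UGT91 enzymes often add a sugar to a sugar already in place. TR131302|c0_g1_i1 (UGT72B1-like, whose Arabidopsis namesake glucosylates monolignols and xenobiotics) and TR15120|c0_g1_i1 (UGT90A1) had 1 fragment each, in leaf 1 and in petal 2.

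Only 7 of the 64 members passed the filter of the test, which asked for 10 FPKM or more in both the mean and the SD over the 4 libraries. Of these, 2 were called higher (TR11081|c0_g1_i1 and TR18361|c0_g1_i1) and 1 lower (TR13027|c0_g1_i1) in petals. The 2 became 0 without leaf 1 or leaf 2, and the 1 became 0 without petal 1 or petal 2. Over all 2157 contigs tested, 24 were called (1.11%), 14 higher in petals (0.649%) and 10 higher in leaves (0.464%), and 102 had an unadjusted p under 0.05, the same 3 members among them. The filter keeps contigs that are high in some libraries and low in others, so the 3 of 7 is not a share of UGTs that changed. With no filter limma tested all 42 members above 0 and called 0, and it called 3 of all 39061 contigs. The fitted prior pooled the spread of all contigs, so that the standard errors came from the trend over contigs of like mean and not from a contig's own libraries. With 1 library left out the prior weighed little, and the standard errors came largely from the 2 libraries of the tissue left whole.

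**Figure D4:**
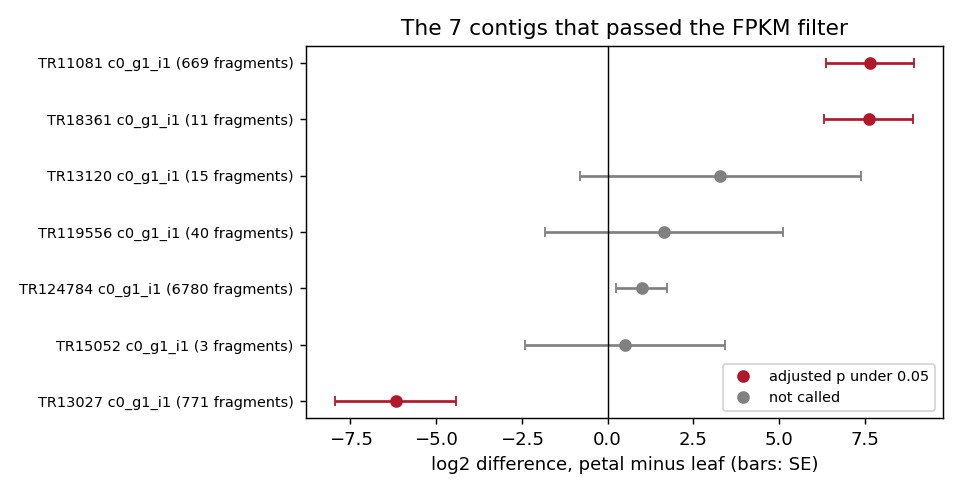
Difference in log2(FPKM + 1), petal minus leaf (x axis, bars are the limma standard error), for the 7 UDP-glycosyltransferase contigs tested (rows, with their fragments over the 4 libraries). The 3 called contigs, in red, lie at 7.65, 7.62 and -6.18, and the most deeply read, TR124784|c0_g1_i1, lies at 0.999 and was not called.

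Genes that feed or undo the UGT reaction were read from lists of hit names. Over all 4 lists, limma tested 4 contigs and called 0, and 1 had an unadjusted p under 0.05. Of 25 contigs of anthocyanin and flavonoid synthesis, 15 were above 0, 1 was tested and 0 were called. The highest with at least 20 fragments, TR10968|c0_g1_i1 (flavonol synthase 3-like, which makes the flavonols that flavonoid glucosyltransferases use), had 0 and 40.3 FPKM in petals, against 0 and 1.54 FPKM in leaves (limma, adjusted p = 0.649). Like TR121539|c0_g1_i1, it was read in petal 2 and leaf 2 alone. The contig of this list with the most fragments, TR15315|c0_g1_i1 (flavonol synthase/flavanone 3-hydroxylase-like), had 0 and 0.04 FPKM in petals, against 3.34 and 1.61 FPKM in leaves, from 1 fragment in petals and 119 in leaves, and did not pass the FPKM filter. Over the list, 2 contigs had both leaf libraries above both petal libraries and 0 the reverse, and the median log2 difference of those above 0 was -0.66. Of 17 contigs of UDP-sugar supply, 10 were above 0, 2 were tested and 0 were called. The highest, TR135523|c0_g1_i1, with a hit to a UDP-glucose and UDP-xylose 4-epimerase, had 298.4 and 0 FPKM in petals, against 0 and 0 FPKM in leaves (adjusted p = 0.515), from 24 fragments of 1 library. TR132659|c0_g1_i1 (sucrose synthase 2, which makes UDP-glucose from sucrose) was more even, with 6.73 and 5.70 FPKM in petals, against 2.19 and 0.49 FPKM in leaves, and did not pass the filter. Without petal 2, the log2 difference of TR135523|c0_g1_i1 was 8.23, against 4.11 with all 4 libraries. Another contig of this list, TR18|c0_g1_i1 (UTP-glucose-1-phosphate uridylyltransferase, which makes UDP-glucose), had 3 fragments, all in leaf 1. Its difference was -6.59 without leaf 2, against -3.29 with all 4 libraries.

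Beta-glucosidases take the sugar off again, and the glucan types in this list act on cell wall or callose glucans. Of 30 contigs, 17 were above 0, 1 was tested and 0 were called. The one tested, TR113017|c0_g1_i1 (beta-glucosidase 11-like), had 24.4 and 17.9 FPKM in petals, against 121.1 and 43.5 FPKM in leaves, a 3.89-fold higher mean in leaves (log2 difference -1.75 ± 0.80 SE, adjusted p = 0.515). Both leaf libraries were above both petal libraries, from 173 and 46 fragments in leaves. Of 14 contigs of other glycosyltransferases that use UDP-sugars, 5 were above 0 and 0 were tested, and TR18868|c0_g1_i1 (xyloglucan glycosyltransferase 6, of cell wall synthesis) had 0 and 0 FPKM in petals, against 19.5 and 0 FPKM in the leaf libraries.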

How the data were processed

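Total RNA of 2 petal and 2 leaf libraries was sequenced as paired reads. The authors built 1 Trinity assembly from all 4 libraries, took the best NCBI database hit as annotation and used RSEM with bowtie (versions not given in the sources) to estimate FPKM. The deposited FPKM have 2 decimals and were used as they stand. The study compared tissues with edgeR, but FPKM are not counts, so the test here was limma (3.58.1, R 4.3.3, two-sided, trended prior) on log2(FPKM + 1), which understates changes of low contigs, over all 2157 contigs whose mean and SD both reached 10 FPKM. The study's methods give this filter, there tied to clustering, and it favours contigs that differ between libraries. The threshold was a Benjamini-Hochberg adjusted p of 0.05.

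The FPKM of 1 fragment was estimated, for each library and contig length, from the even steps between low values (Python 3.11.15, scipy 1.17.1). The search began at 1 contig length, from the smallest value that recurred, and moved on to neighbouring lengths. A non-negative least squares fit over fragment lengths then gave 1 curve per library. Of low values, 98.72% to 98.89% lay within 0.1 of a whole number. These were largely the values the curve was fitted to, so this share describes the fit and is no separate check. The curve was fitted on contigs of up to 520 nt and extended to longer ones, so the fragment numbers of longer contigs are less certain. Wilson intervals are 95% and, like the floor of 3 fragments, cover counting error only. The floor covers it for the tissue at 0 alone, so an "at least" fold takes the mean of the other tissue as it stands. A fold is a ratio of mean FPKM. RSEM can divide reads between near-identical copies, so contigs with the same hit gene are uncertain as separate values.

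Contigs named are every called member, in each hit group the 3 of highest mean FPKM with at least 20 fragments or else the one with most fragments, and the highest and all called of each pathway list. Other contigs with the same hit gene, and other contigs named, were chosen after their values were seen. The members and lists were chosen with earlier results of these data known. Scripts were tested on simulated data. Alternatives were other pseudocounts, filters, scalings and priors, a replicate block and each library left out. No sequence or coordinate is given, since contig sequences were not analysed here and the RefSeq gene table could not be matched to contig names.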

Additional observations from a re-analysis of the deposited data

How the results depend on the processing

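The 2 calls higher in petals became 0 with no filter, with a mean of at least 1 FPKM, with at least 20 fragments and with no trend in the prior, and 1 with the FPKM filter and at least 20 fragments together (chosen after seeing the data), where TR18361|c0_g1_i1 could not be tested. The 1 call higher in leaves became 0 under the same settings except the last, and also with a pseudocount of 10 FPKM, a robust prior or an equal sum over all contigs. Over all contigs, 3 of 39061 were called with no filter and 9 of 18894 with a mean of at least 1 FPKM. With at least 20 fragments 0 of 4978 were called, and with no trend 0 of 2157. With the FPKM filter and at least 20 fragments together, 24 of 371 were called, against 24 of 2157 in the main fit. A fit with 1 library left out leaves a single library in 1 tissue and a prior of little weight, so its calls are not counted here. The calls higher in petals did not hold without leaf 1 or leaf 2, nor that in leaves without petal 1 or petal 2, though these differences did not change. Adjusted p ranged from 4.11e-15 to 0.469 for TR11081|c0_g1_i1, 1.01e-14 to 0.427 for TR18361|c0_g1_i1 and 0.000931 to 0.509 for TR13027|c0_g1_i1, always with the same sign. The log2 difference of TR119556|c0_g1_i1 turned to -1.08 without petal 1 (range -1.08 to 4.37 over left-out libraries). The labels share replicate numbers across tissues, and more contigs were read in same-numbered libraries alone (9.04% and 6.36% of 1117) than in crossed pairs (4 and 2 contigs). The replicate deviations correlated by r = 0.0406 over the 2157 tested contigs. That is a different set, of which 371 had at least 20 fragments, so the r cannot decide whether the numbers pair libraries. With nothing in the labels on what a number marks, the main test has no block. A replicate block kept 2 and 1 member calls (51 contigs called in all) and made 1 pathway call higher in leaves, TR113017|c0_g1_i1 (adjusted p = 0.0361). In the pathway lists, the difference of TR135523|c0_g1_i1 was 8.23 without petal 2, and that of TR18|c0_g1_i1 was -6.59 without leaf 2. The petal over leaf ratio of summed member FPKM, 3.68, was 2.82 with an equal sum over all contigs, 2.93 with at least 20 fragments, 2.47 without the member of highest mean FPKM and 3.11 to 4.25 with a library left out. The share ratio of 1.66 was 1.34 without the member with the most fragments and 1.55 to 1.77 with a library left out.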
